A study of Saccharomyces cerevisiae with 6 samples.

Results

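Ribosome biogenesis genes named UTP, NOP, RRP or NOC were described in budding yeast, Saccharomyces cerevisiae, that carries an altered histone H2B. The members were all genes whose array probe sets are annotated with 1 gene symbol made of one of these 4 prefixes and a number. There were 55 of them among 5656 measured genes: 18 UTP, 16 NOP, 18 RRP and 3 NOC genes. Expression was measured on 6 single-colour oligonucleotide arrays, 3 of the mutant strain labelled Histone H2B 3-32 and 3 of a wild-type strain. Both were grown in rich medium (YPD) to mid-log phase, at an OD600 of 0.5 to 0.7, and total RNA was taken by hot phenol extraction. In strains of this kind the notation 3-32 stands for removal of residues 3 to 32 of the H2B amino-terminal tail. The sources used here do not state the strain background, how each strain is supplied with H2B, or whether the replicates came from different cultures. The p-values therefore cover the spread of these samples alone, and that spread may be technical. By its label, wild-type array 3 also served the mutants H2B K->G and H2B 3-37.

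Ribosome production starts in the nucleolus, where RNA polymerase I makes a long precursor ribosomal RNA. The UTP proteins gather on this precursor with the U3 small nucleolar RNA in the small subunit (SSU) processome, which folds and cuts the part that becomes the 40S subunit. Many NOP and NOC proteins assemble or export the pre-60S and pre-40S particles, and the RRP genes include both assembly factors and subunits of the exosome, the complex that trims RNA from its 3′ end. In yeast these genes are known for moving together with growth rate and nutrients.

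An H2B gene gave a check of the labels, which name the altered histone but not the gene that was altered. HTB1, which encodes H2B, had signals of 16.1, 19.4 and 15.2 in the mutant, against 1372, 1138 and 1191 in wild type. The sources used here do not say which part of HTB1 its probe set covers, so a loss of signal need not mean a loss of the whole transcript. Array 3 of each strain stood apart: its spiked hybridisation controls averaged 196 in the mutant and 203 in wild type, against 682 to 899 on the other 4 arrays, and its highest gene signal was 2649 and 3179, against 6018 to 8357. The ratio of the 3′ to the 5′ probe sets of the actin control was 1.46 in the mutant and 1.38 in wild type on array 3, against 1.59 to 1.90 on the others. For the control of SPT15, the TATA-binding protein, that ratio was 3.00 on mutant array 3 and 3.75 on wild-type array 3, the lowest and the highest of the 6 arrays. Probe sets for 25S rRNA averaged 682, 336 and 203 on mutant arrays 1, 2 and 3, against 142.9, 217 and 91.5 in wild type. The part of these differences in the members' values was not tested.

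None of the 55 genes passed the comparison of mutant with wild type. The values used were the deposited signals, on the scale log2(signal + 2.7), and a gene was called when its limma adjusted p over all 4525 tested genes was below 0.05. All 55 members were bright enough to be tested, with mean signals of 51.02 to 2473. With the strains as the only term, 0 of 55 members were called, against 1 of 4525 genes (0.0221%), HTB1, and the lowest adjusted p of a member was 0.9998. At an unadjusted p under 0.05 there were 0 members, against 113 genes (2.50%). With the replicate number as a block, 0 of 55 were again called, against 103 genes (2.28%). At an unadjusted p under 0.05 the block gave 5 members, where 17.3% of all tested genes had such a p. Of those 5, UTP30 and UTP11 were higher, against 5.17% of all tested genes, and NOC4, RRP3 and NOP6 were lower, against 12.1%. Without the arrays of replicate 3, again 0 members were called, against 53 genes (1.17%), and the median log2 change was -0.03 for the members and -0.07 for all tested genes.

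Members differed little between the strains. The median log2 change, mutant minus wild type, was -0.04 for the 55 members and -0.06 for all tested genes. Of the members 33 had a negative and 22 a positive log2 change, and 63.0% of all tested genes had a negative one. All 3 pairs of same-numbered arrays had a negative difference in 12 members, against 27.4% of all tested genes, and a positive one in 7, against 11.5%. The data separate replicate 3 only, so the pairing of arrays 1 and 2, here and below, rests on the labels alone. The median size of the change, without sign, was 0.10 for the members, against 0.12 for all tested genes and 0.12 for the 2898 other genes in the members' range of brightness. No member's log2 change exceeded 0.49 in size, and 117 of all tested genes had one above 0.5. Genes of one prefix lay close to the others: the median log2 change was -0.02 for UTP, -0.05 for NOP, -0.01 for RRP and -0.08 for NOC genes. With each array scaled to a common median these turned to 0.01, -0.01, 0.03 and -0.04, so the signs for UTP and RRP genes turned with the scaling. The distribution of changes shows the members inside the spread of all genes.

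**Figure D1:**
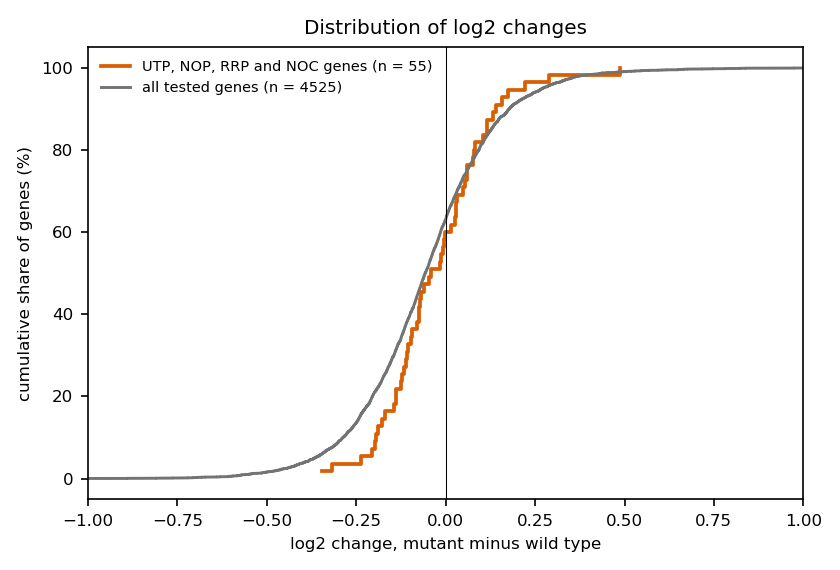
Cumulative share of genes (y, percent) at or below each log2 change, mutant minus wild type (x), for the 55 UTP, NOP, RRP and NOC genes (orange) and all 4525 tested genes (grey). The x axis stops at -1 and 1, and the few genes beyond are not drawn. The members reach from -0.35 to 0.49 and their curve is steeper than that of all genes on the negative side.

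How small a change these arrays could exclude depended on the model. With the replicate block, the 95% interval of the log2 change stayed within a 1.5-fold change either way for 54 of 55 members, and UTP30 was the exception. Among all tested genes this held for 87.5%, and among the other genes of the members' brightness for 91.9%. With the strains only, it held for 29 of 55 members (52.7%), against 36.6% of all tested genes and 45.8% of the other genes of like brightness. Within a 2-fold change lay the intervals of 50 of 55 members (90.9%) in that fit, against 85.9% of all tested genes and 90.3% of those of like brightness. The members outside were RRP14, RRP36, RRP7, UTP30 and UTP6. These are intervals of single genes and do not hold for all 55 jointly.

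**Figure D2:**
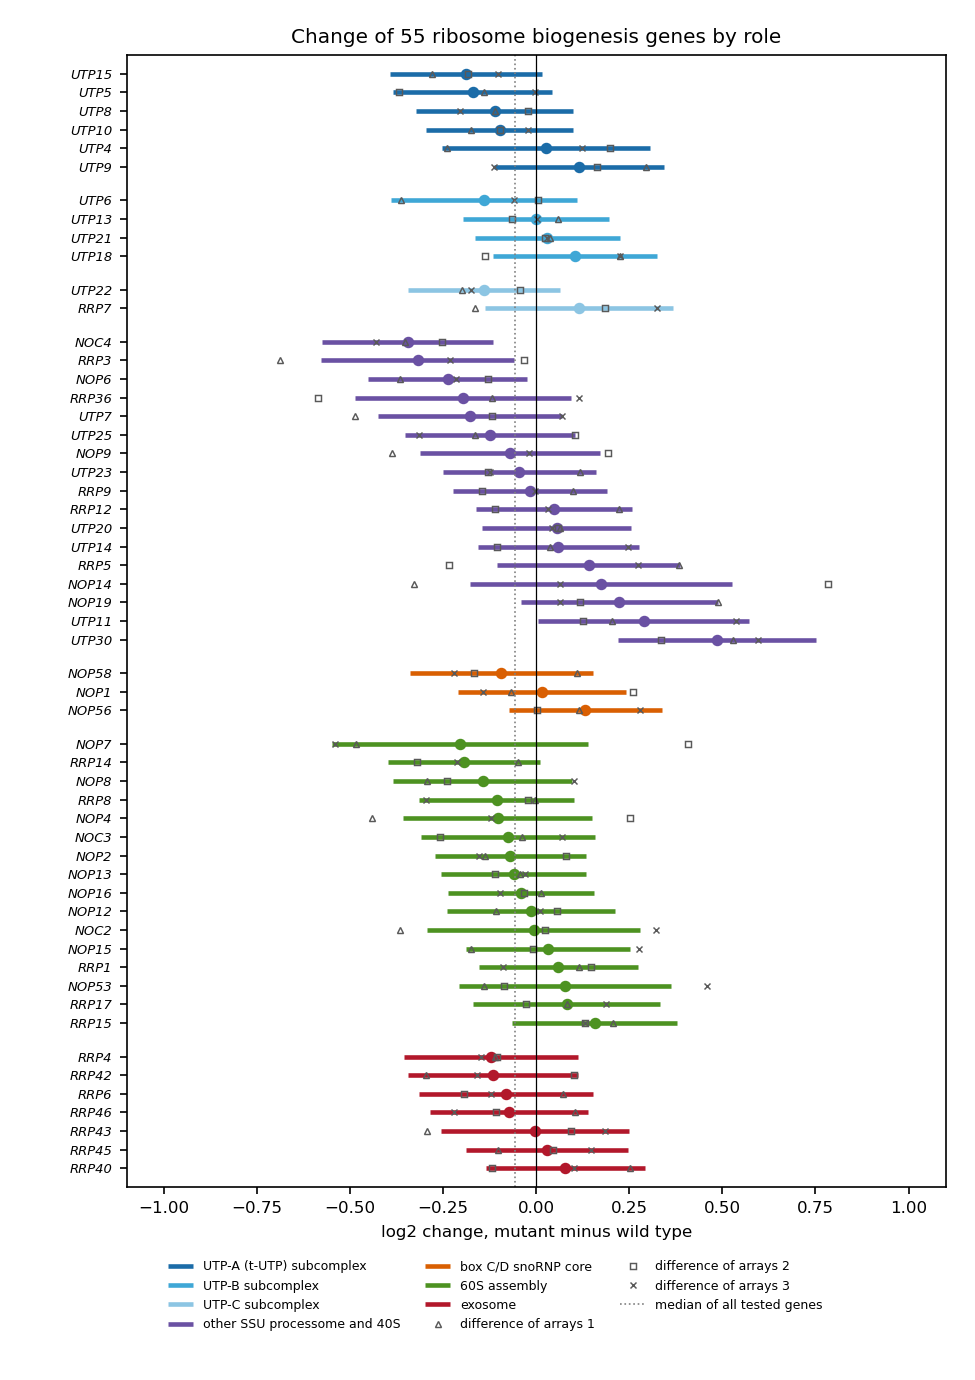
Log2 change, mutant minus wild type (x), of the 55 genes (y), grouped by role. Filled points are means of 3 arrays per strain, bars are 95% intervals from the fit with the replicate block, small open symbols are differences between same-numbered arrays, and the dotted line is the median of all tested genes, -0.06. UTP30 lies farthest to the right at 0.49 and NOC4 farthest to the left at -0.35.

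The UTP-A genes encode the subcomplex that binds the nascent precursor first and is also called t-UTP. UTP15 had signals of 172.3, 204.9 and 167.3 in the mutant, against 209.8, 232.9 and 179.9 in wild type (log2 change -0.19, adjusted p = 0.327 with the block). UTP5 had 266.3, 225.5 and 259.8 in the mutant, against 293.7, 291.7 and 260.6 in wild type (-0.17). The mutant array was the lower one in each same-numbered pair for both genes, but the ranges of the strains overlapped. UTP8 had a log2 change of -0.11, UTP10, a very large scaffold protein, of -0.10, and UTP4 of 0.03. UTP9, by contrast, had 171.9, 162.0 and 151.5 in the mutant, against 139.6, 144.4 and 164.0 in wild type (0.12). Thus 4 of the 6 UTP-A genes among the members were lower in all 3 pairs, where 27.4% of all tested genes were. That count rests on pairing by replicate number. For UTP10, mutant array 2 (555.5) lay above wild-type array 1 (465.5), so exchanging wild-type arrays 1 and 2 would lower it. Genes of the subcomplex with names outside the 4 prefixes were not counted here. The count was 2 after quantile normalization and 3 after scaling to a common median, and 0 of the 6 passed either fit.

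The members that belong to the UTP-B subcomplex, which joins next and contacts U3 RNA, were close to level. UTP21 had 380.7, 402.9 and 252.4 in the mutant, against 370.8, 396.6 and 247.5 in wild type, a log2 change of 0.03. UTP13 followed the same course, with 444.8, 438.3 and 250.4 in the mutant and 427.4, 458.9 and 249.9 in wild type (-0.002). In both genes the third array of each strain was far below the other two, while the means of the strains were close. UTP18 had a log2 change of 0.10 and UTP6 of -0.14. In the UTP-C subcomplex, UTP22 had a log2 change of -0.14 and RRP7 of 0.11.

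The largest differences among the members were found in the other SSU processome and 40S genes. The highest changes, of UTP30 and UTP11, belonged to the dimmest members. Their SEs with the block were 0.125 and 0.132, against a median of 0.106 for the members. UTP30, a nonessential protein of the early particle related to ribosomal protein L1, had signals of 55.1, 56.0 and 89.9 in the mutant, against 37.4, 43.8 and 58.6 in wild type. Each mutant array was above its same-numbered wild-type array, by 0.53, 0.34 and 0.59 on the log2 scale, yet the ranges of the strains overlapped because wild-type array 3 lay above mutant arrays 1 and 2. The log2 change was 0.49 ± 0.26 (SE, n = 3 per strain) with an adjusted p of 0.9998, and the adjusted p was 0.0591 with the replicate block. UTP30 passed when the arrays of replicate 3 were treated as a batch (adjusted p = 0.0483), the one alternative of 22 in which any member was called, and its adjusted p over all alternatives lay between 0.0483 and 1. Within replicates 1 and 2 alone its log2 change was 0.43 (adjusted p = 0.241), and replicate 3 holds 1 array per strain, which allows no test.

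UTP11, another processome protein, had 44.3, 50.2 and 76.1 in the mutant, against 38.1, 45.8 and 51.6 in wild type (log2 change 0.29, adjusted p = 0.276 with the block). NOP19, which acts in early cleavage of the precursor, had 87.7, 83.5 and 65.4 in the mutant, against 61.7, 76.8 and 62.5 in wild type (0.22). RRP5, an RNA-binding protein needed for both subunits, had 572.6, 461.4 and 454.2 in the mutant, against 438.6, 542.9 and 375.1 in wild type (0.14). The mutant was above wild type in all 3 pairs for UTP11 and NOP19 and in 2 of 3 for RRP5, and the ranges overlapped in each gene.

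NOC4, also known as UTP19, and NOP14 form a pair of proteins in the pre-40S particle, and their values did not run together. For NOC4 the signals were 75.1, 81.4 and 107.6 in the mutant, against 96.7, 97.5 and 145.9 in wild type, a log2 change of -0.35 (adjusted p = 0.108 with the block). For NOP14 they were 65.6, 90.4 and 92.8 in the mutant, against 83.0, 51.4 and 88.7 in wild type, a change of 0.17. NOC4 was lower in the mutant in each pair, by 0.35, 0.25 and 0.43, whereas the NOP14 differences were -0.33, 0.78 and 0.06. Wild-type array 2 was the lowest, and without the arrays of replicate 2 the log2 change of NOP14 was -0.13. Its pair differences rest on the replicate numbers. With wild-type arrays 1 and 2 exchanged, the mutant would be above wild type in each pair.

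RRP3, a DEAD-box RNA helicase for 18S rRNA maturation, had 106.3, 132.9 and 177.8 in the mutant, against 173.1, 136.1 and 209.3 in wild type (log2 change -0.32, adjusted p = 0.197 with the block). The difference was -0.69 in pair 1, -0.03 in pair 2 and -0.23 in pair 3. NOP6, an RNA-binding protein of the early particle, was the 1 member whose strains did not overlap: 124.8, 151.1 and 156.4 in the mutant, against 161.5, 165.7 and 182.2 in wild type (-0.24, adjusted p = 0.242 with the block). Among all tested genes the strains did not overlap in 346 (7.65%), and the mutant was the lower one in 4.99%. The members' count of 1 of 55 is below these shares.

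**Figure D3:**
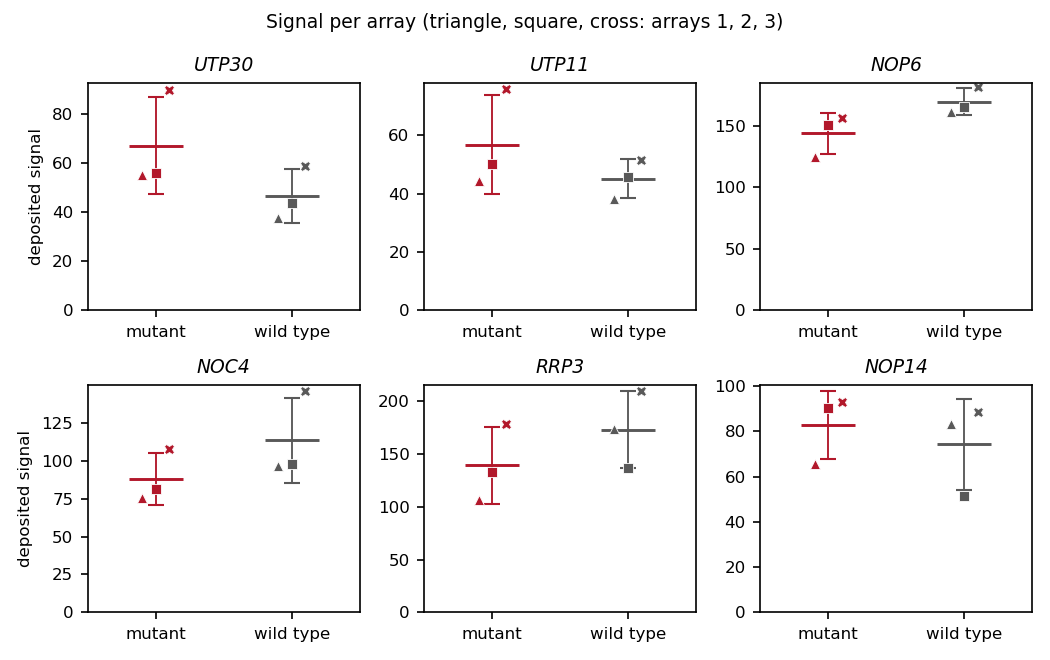
Deposited signal (y) on each array of mutant (left, red) and wild type (right, grey) for 6 members: triangles, squares and crosses are arrays 1, 2 and 3, horizontal lines are means and bars are SD (n = 3). In all 6 panels the highest value of each strain is on array 3, and NOP6 is the panel in which the strains do not overlap.

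Of the remaining genes of this role, UTP7 had 107.5, 129.7 and 150.1 in the mutant, against 151.6, 141.0 and 143.0 in wild type (-0.18), and RRP36 had 93.0, 73.9 and 52.1 in the mutant, against 101.3, 112.4 and 47.9 in wild type (-0.20). For both genes the difference on array 3 had the opposite sign to that on arrays 1 and 2. Log2 changes were -0.13 for UTP25, -0.07 for the RNA-binding protein NOP9, -0.05 for UTP23, which acts in release of a small nucleolar RNA, and -0.02 for RRP9, the U3-specific protein. They were 0.05 for RRP12, an export factor, 0.05 for UTP20 and 0.06 for UTP14, the activator of a processome helicase.

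Box C/D small nucleolar ribonucleoproteins guide methylation of rRNA and include U3. Their core genes were among the brightest members. NOP1, the yeast fibrillarin and the methyltransferase of these particles, had 972.3, 1072 and 840.5 in the mutant, against 1020, 895.8 and 928.0 in wild type (log2 change 0.02). NOP56 had 661.3, 633.1 and 444.9 in the mutant, against 611.0, 631.8 and 366.6 in wild type (0.13). NOP58, its paralogue, had 3169, 2674 and 1409 in the mutant, against 2937, 3006 and 1643 in wild type (-0.09), measured by a probe set whose name marks possible signal from related sequences. In NOP56 and NOP58 array 3 was the lowest of each strain.

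Genes of 60S assembly ranged from -0.21 to 0.16. NOP7, a subunit of the PeBoW complex, had 59.3, 91.4 and 56.8 in the mutant, against 84.1, 68.2 and 83.8 in wild type (log2 change -0.21), with differences of -0.49, 0.41 and -0.54 in the 3 pairs. RRP14 had 533.1, 466.6 and 215.3 in the mutant, against 551.6, 583.5 and 249.9 in wild type (-0.19, adjusted p = 0.309 with the block). NOP8 had 115.1, 105.6 and 93.8 in the mutant, against 141.8, 125.1 and 87.3 in wild type (-0.14). RRP14 was lower in all 3 pairs, NOP8 in 2 and NOP7 in 2. At the other end RRP15 had 114.8, 132.3 and 102.5 in the mutant, against 99.1, 120.5 and 93.3 in wild type (0.16), higher in each pair with overlapping ranges.

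The NOC2 and NOC3 proteins bind each other and accompany pre-60S particles out of the nucleolus. NOC3, which is also known for a role in starting DNA replication, had 114.4, 106.0 and 94.7 in the mutant, against 117.5, 127.4 and 90.1 in wild type (-0.08). NOC2 had 63.9, 68.7 and 109.0 in the mutant, against 83.1, 67.6 and 86.7 in wild type (-0.01), with pair differences of -0.37, 0.02 and 0.32. Those opposite signs cancelled in the mean. Among the other 60S genes the methyltransferases RRP8 and NOP2 had log2 changes of -0.11 and -0.07, NOP4 of -0.10, NOP13 of -0.06, NOP16 of -0.04 and NOP12 of -0.01. Values were 0.03 for NOP15, 0.06 for RRP1, 0.08 for NOP53, which brings the exosome to the pre-60S particle, and 0.08 for the exonuclease RRP17.

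The RRP genes of the exosome covered a narrow range, from -0.12 to 0.08. RRP6, the nuclear exonuclease, had 99.8, 94.8 and 98.5 in the mutant, against 94.9, 108.8 and 107.3 in wild type (log2 change -0.08). The cap subunits RRP4 and RRP40 had changes of -0.12 and 0.08. The ring subunits RRP42, RRP43, RRP45 and RRP46 had changes of -0.12, -0.004, 0.03 and -0.07. Of the 7 genes 5 had a negative change and 1, RRP4, was lower in all 3 pairs.

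Other genes of the pathway, listed by role, also had 0 passing. Of all tested genes 0.0221% passed with the strains only and 2.28% with the block. At such shares lists of this size would hold few passing genes or none, so the counts do not set them apart. Of 42 tested SSU processome and 40S factors outside the prefixes 0 passed either fit, with a median log2 change of -0.001, and the lowest block p values belonged to RCL1 (-0.37, adjusted p = 0.137) and SOF1 (0.23, adjusted p = 0.220). Of 63 further 60S factors 0 passed (median -0.06), with SPB4, a helicase, at -0.32 (adjusted p = 0.108) and LOC1 at -0.26 (adjusted p = 0.176). Among 31 snoRNP, exosome and RNA processing genes 0 passed (median -0.07), and POP1 and POP3, subunits of RNases P and MRP, had log2 changes of -0.34 and -0.39 (adjusted p = 0.108 and 0.194 with the block). RNA polymerases I and III and their factors had 0 of 35 passing (median -0.01), with RPC82 at -0.28 and RPB5 at 0.22 (adjusted p = 0.252 and 0.260). In the regulator list 0 of 13 passed. It included DOT6, a repressor that binds promoters of ribosome biogenesis genes, at 0.21, and ABF1, a general regulatory factor, at -0.24 (adjusted p = 0.307 and 0.348).

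In the order of protein-coding genes of the R64 assembly, 8 neighbouring pairs held a member and another gene of these lists, and in 4 of them both genes had a negative log2 change, while in the other 4 the signs were opposite. RRP15 and NOC4, convergent genes, were the 1 pair of members, with 0.16 and -0.35. Opposite signs were also found for UTP9 (0.12) with RIX1 (-0.19), RPC17 (0.06) with NOP9 (-0.07) and PWP1 (-0.06) with NOP56 (0.13). Both genes were negative for RRP3 (-0.32) with SSF1 (-0.12), NOC3 (-0.08) with CMS1 (-0.15), RSA3 (-0.08) with UTP13 (-0.002) and NOC2 (-0.01) with RET1 (-0.16).

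A larger difference than that between the strains ran between arrays of 1 strain. For 48 of 55 members (87.3%) the shift of array 3 from the mean of arrays 1 and 2, averaged over the strains, was larger than the log2 change between mutant and wild type, and this held for 79.9% of all tested genes. The median size of the shift was 0.37 for the members, against 0.38 for all tested genes and 0.35 for the other genes in the members' range of brightness. The median shift of the members was -0.18 in the mutant and -0.13 in wild type, against 0.31 and 0.27 for all tested genes. Quantile normalization put these at -0.37 and -0.34 for the members, against 0.03 and 0.03 for all tested genes. Scaling to a common median gave -0.63 and -0.50, against -0.13 and -0.10, so the members stayed below all genes while the sign for all genes turned. In both strains 29 members (52.7%) were lower and 19 (34.5%) higher on array 3, against 20.9% and 66.6% of all tested genes. Quantile normalization made these 36 lower and 12 higher, against 37.9% and 43.6% of all tested genes, and scaling to a common median 39 and 10, against 50.4% and 32.8%. The shifts in mutant and wild type correlated across the 55 genes at r = 0.914 and across all tested genes at r = 0.864, a description across genes that share their 6 arrays.

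RRP7 of UTP-C had 69.1, 73.2 and 208.5 in the mutant, against 77.8, 64.1 and 165.9 in wild type, a shift of array 3 by 1.52 in the mutant and 1.20 in wild type on the log2 scale. UTP6 of UTP-B had 54.1, 64.6 and 151.5 in the mutant, against 70.3, 64.4 and 158.1 in wild type (1.32 and 1.20). RRP14 lay at the other end, with shifts of -1.20 in the mutant and -1.17 in wild type. NOP58 had -1.05 and -0.85, and RRP36 had -0.64 in the mutant and -1.11 in wild type. RRP42 of the exosome had 0.83 in the mutant and 0.90 in wild type. UTP13 had -0.81 and -0.82, and UTP10 had -0.70 and -0.81. Of the 4 UTP-B members, UTP13, UTP18 and UTP21 were lower on array 3 in both strains and UTP6 was higher.

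**Figure D4:**
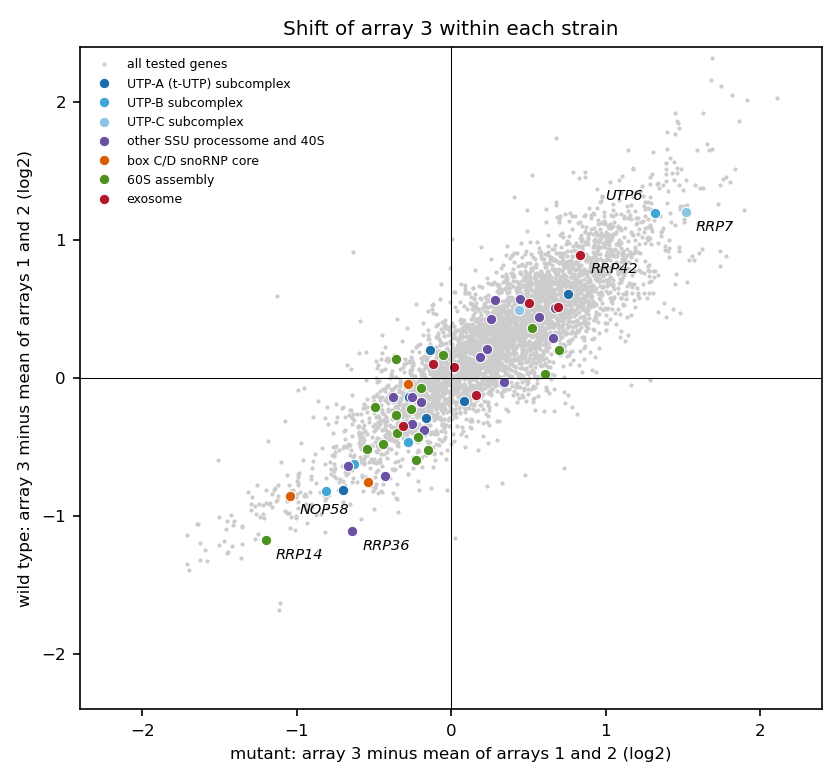
Log2 signal of array 3 minus the mean of arrays 1 and 2, in the mutant (x) and in wild type (y), for the 55 members coloured by role and all tested genes in grey. Members lie along the diagonal from RRP14 (-1.20 and -1.17) to RRP7 (1.52 and 1.20), with more of them lower than higher on array 3.

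On the deposited scale the shift went with brightness. All 14 members with a mean signal over 300 were lower on array 3 in both strains, where 51.2% of 711 tested genes of that brightness were. The count was 13 of 14 after quantile normalization, against 39.1% of the tested genes over 300. That share was near the 37.9% of all tested genes. Quantile normalization gives every array the same distribution of values, so these shares cannot show whether genes at large shifted with brightness. After scaling to a common median the count was 14 of 14, against 83.0% of tested genes over 300 and 50.4% of all tested genes. With the deposited values, between 100 and 300, 13 of 29 members (44.8%) were lower in both strains, against 19.5% of 1237 genes. Below 100, 9 of 12 members (75.0%) were higher in both strains, against 73.8% of 2577 genes. No test was made of these shares, since members measured on the same arrays are not replicates. By role, the 3 box C/D genes were all lower on array 3 in both strains. Their mean signals were 558 to 2473, and of tested genes over 300 the share was 51.2%. Of 16 genes of 60S assembly, with mean signals of 69.1 to 488, 11 were lower in both strains, beside 20.9% of all tested genes. Role and brightness were not separated. Of the 7 exosome genes 4 were higher in both strains (57.1%), near the 66.6% of all tested genes, and 1 was lower. After quantile normalization 2 box C/D, 13 60S and 4 exosome genes were lower in both strains, against 37.9% of all tested genes. After scaling to a common median these counts were 3, 13 and 4, against 50.4%. The 4 exosome genes are 57.1% of the 7 in each case.

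UTP20, UTP22 and NOP58 each have several probe sets annotated to them, and those of 1 gene gave unlike shifts. Most of the dimmer probe sets of UTP20 and UTP22, including both quoted below, have names that mark possible signal from related sequences. The names of the brightest probe sets of UTP20 and UTP22 carry no such mark. For UTP20, a HEAT-repeat protein of the processome, the brightest of 10 probe sets gave 211.8, 198.8 and 179.0 in the mutant, against 202.5, 190.8 and 173.9 in wild type. A dimmer one gave 100.1, 100.3 and 12.6 in the mutant, against 73.0, 98.1 and 10.7 in wild type, an array 3 shift of -2.75 and -2.70 on the log2 scale. Its array 3 values were thus a small part of the others in both strains, where the brightest probe set shifted by -0.19 and -0.17.

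For UTP22 the brightest of 6 probe sets was higher on array 3 (170.2, 181.9 and 239.6 in the mutant, against 195.9, 187.7 and 271.0 in wild type). The other 5 were lower there, and one of them gave 101.8, 121.6 and 13.2 in the mutant, against 75.7, 113.0 and 11.5 in wild type. The array 3 shift of a gene therefore depended on the probe set, down to its sign. Over probe sets with a mean signal above 20, the log2 change between the strains ran from -0.14 to 0.23 in the 6 of UTP22, from -0.01 to 0.22 in 6 of UTP20 and from -0.09 to 0.07 in the 4 of NOP58. The other 4 probe sets of UTP20, with mean signals of 3.37 to 7.83, had log2 changes of -0.01 to 0.53. The sources used here do not say where each probe set lies in its gene. The other 52 members have 1 probe set each, so the same comparison could not be made for them.

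**Figure D5:**
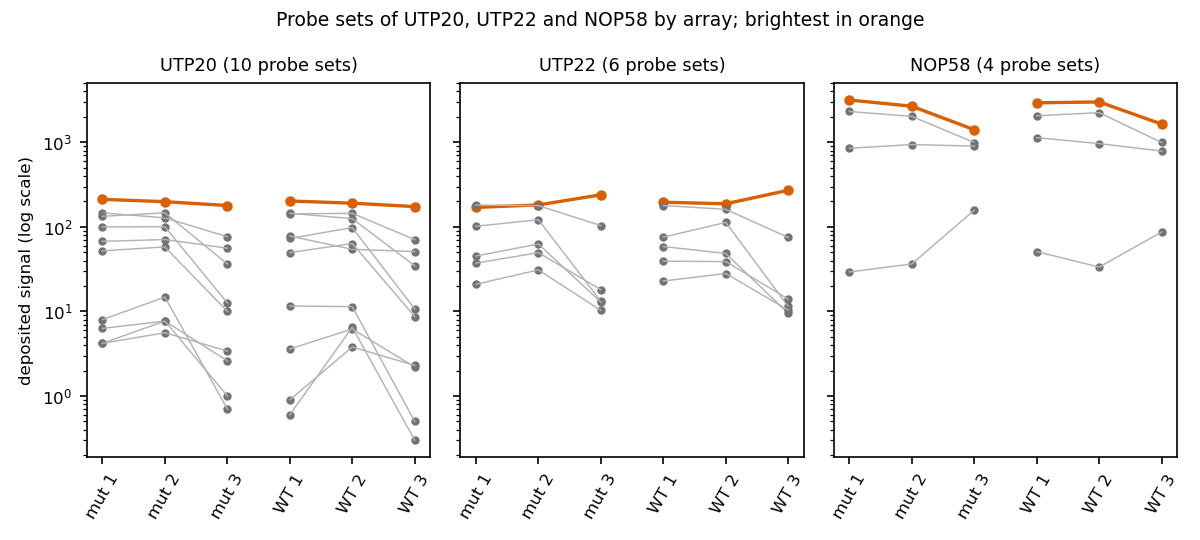
Deposited signal (y, log scale) of every probe set of UTP20, UTP22 and NOP58 on the 3 mutant (left) and 3 wild-type (right) arrays. Lines join the values of 1 probe set within a strain, and the brightest, used for the gene, is orange. Most of the dimmer probe sets of UTP20 and UTP22 drop on array 3 of both strains, while the brightest stays within a narrow range.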

How the data were processed

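The authors deposited 1 table of linear intensity values per probe set, made with MAS5 per the submitters' processing notes from about 20 µg of total RNA per array per the labels. The sources used here do not give its version, settings or detection calls. The deposited columns shared a 2% trimmed mean of 125.1 to 125.2 and were used as they are. Of 9335 probe sets, 60 controls were left out. The platform table gave 1 gene for 6504, several for 328 and none for 2443. Symbols were updated through RefSeq's R64 gene table, in which all 5656 genes were found. The brightest probe set stood for a gene (72 probe sets for the 55 members). NOP10 matches the name rule but had no probe set with 1 gene. Before log2, 2.7 was added (the 10th percentile of non-control values), so changes of dim genes are understated. Genes below the 20th percentile of mean log2 value (1131) were left out.

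The comparison of strains used limma 3.58.1 under R 4.3.3 (eBayes with trend, two-sided, Benjamini-Hochberg over 4525 genes). Deviations of same-numbered arrays from their strain means correlated at 0.525, 0.593 and 0.864 for replicates 1, 2 and 3, so the numbers, taken from the labels, were treated as pairing the arrays. Mutant array 1 with wild-type array 2 (0.646) and mutant array 2 with wild-type array 1 (0.505) correlated likewise, so the data separate replicate 3 only. Fits were tested on simulated data. The block left 2 residual degrees of freedom against a prior of 12.5. The number of arrays limits the precision. Values per array were given for members passing either fit, for those whose strains did not overlap and for the 3 highest and 3 lowest log2 changes of each prefix. Other members with such values, and the probe sets shown, were chosen after their values were seen. Of the other lists the 2 genes with the smallest block p were named. The members and lists were chosen with earlier results of these data known. Promoter motifs and protein features were planned but sequences were not analysed here.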

Additional observations from a re-analysis of the deposited data

How the results depend on the processing

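The comparison was repeated under 22 alternatives. No member was called in 21 of them, and with replicate 3 as a batch 1 member, UTP30, was called. Over all tested genes, where 1 gene was called, the count was 2 with quantile normalization, 103 with the replicate block, 119 with replicate 3 as a batch and 53 with replicates 1 and 2 only. Leaving out 1 array gave 1 to 2 genes, and leaving out 1 pair with the block gave 15 to 207: 207 without replicate 1, 25 without replicate 2 and 15 without replicate 3. The replicate block changed no call of a member. The members' median log2 change lay between -0.0907 (without wild-type replicate 3) and 0.0171 (without mutant replicate 3), and it was above 0 only without mutant replicate 3. All genes' median was -0.16 without mutant replicate 3 and 0.02 without wild-type replicate 3, and these opposite moves come with an array 3 left unbalanced. The cause was not tested. Among the 21 members given by the naming rule, 14 kept the sign of their log2 change in all 22 alternatives and 7 did not, which were NOC2, NOC3, NOP14, NOP56, RRP14, RRP36 and RRP7. The filter on dim genes removed no member, also when set at the 40th percentile.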
